A study of Mus musculus with 12 samples.

Results

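Primitive endoderm is the first inner layer of extraembryonic endoderm in the mouse blastocyst, and 9 genes that mark it are described here across 12 RNA-seq libraries of mouse embryonic stem cells. The genes are Gata4, Gata6, Sox7, Sox17, Foxa2, Dab2, Pdgfra, Cubn and Amn. They were taken by gene symbol from a table of 23668 rows, and each symbol had 1 row. The cells carry the strain label SV129 and were grown on gelatin in medium with LIF, the cytokine that maintains the stem cell state. TKO cells are labelled RARα-/-, RARβ-/-, RARγ-/-, that is, deleted for all receptors that bind retinoic acid as RAR proteins, and WT cells are wild type. Each genotype received all-trans retinoic acid (ATRA) at 1 uM or its ethanol vehicle for 24 h, which gives TKO with ATRA, TKO in vehicle, WT with ATRA and WT in vehicle with 3 libraries each. The labels name neither the number of TKO clones nor separate cultures behind the 3 libraries of a group, so the p-values rest on a spread between libraries that may be technical.

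In the blastocyst the inner cell mass splits into epiblast, which forms the embryo, and primitive endoderm, which forms the lining of the yolk sacs. FGF4 from epiblast precursors acts through FGF receptors and ERK to raise GATA6, which acts against NANOG; GATA4, SOX17 and SOX7 come on later, and the layer then forms parietal and visceral endoderm. PDGFRA is a receptor on primitive endoderm cells, DAB2 is an endocytic adaptor, and cubilin (Cubn) with amnionless (Amn) forms a receptor that takes up proteins in visceral endoderm. Retinoic acid is long known to turn embryonal carcinoma cells and, with other cues, stem cells towards extraembryonic endoderm.

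Values are FPKM, a level corrected for how long the transcript is and how deeply the library was sequenced. The libraries held 11397 to 12193 genes at 1 FPKM or more, and relative depth read from the steps between low values was 0.922 to 1.275 in 10 libraries set against the D library of WT in vehicle. The D library of WT with ATRA had no sharp steps, since 8.35% of its low genes lay at 1 step, against 20.9% to 36.9% in the others, so calls of the 9 genes that rest on WT with ATRA are also given without it. The stem cell gene Pou5f1 averaged between 828 and 1351 FPKM over the 4 groups. Rarg lay at 11.8 to 17.5 FPKM in TKO libraries and 35.8 to 98.7 in WT libraries, Rarb at 0.015 to 0.139 in TKO and 0.235 to 7.3 in WT, and Rara at 7.55 to 9.82 in TKO and 9.15 to 20.04 in WT. Gene-level reads of this kind do not show whether a transcript is intact. The letters D, F and G in the column names were taken to pair libraries within a genotype. This was inferred from correlations in these same data, and no label states it. Values are given below in that order.

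In WT cells 2 transcription factor genes of the layer rose with ATRA, and the uptake genes Dab2, Cubn and Amn did not pass the test. Gata6 and Sox7 were 2 of the 8 genes that could be tested, where 16.7% of all 12362 tested genes passed and 11.6% rose (limma on log2(FPKM + 1), Benjamini-Hochberg adjusted p under 0.05). Of the all-gene calls 69.2% were rises, compared with 50.7% after median-of-ratios scaling and 55.5% after quantile normalization. All of the 8 except Cubn had a positive difference, and the median was 0.43 on the log2 scale, against 0.05 over all tested genes. In bulk RNA, a larger share of cells of one kind and more RNA per cell cannot be told apart.

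Gata6 encodes a zinc-finger factor that is needed for primitive endoderm to form. It stood at 11.3, 8.56 and 15.8 FPKM in WT with ATRA, against 1.02, 1.52 and 0.701 in WT in vehicle. Every treated library lay above every vehicle library, and the G pair held both the highest treated and the lowest vehicle value, so its ratio was 22.6, compared with 11.1 for D and 5.63 for F. The means gave an 11-fold ratio (11.9 ± 3.68 FPKM with ATRA and 1.08 ± 0.413 in vehicle, SD, n = 3 each), and the log2 difference was 2.61 ± 0.24 (SE; limma adjusted p = 3.9e-05). Without the D library of WT with ATRA it was 2.63 (limma adjusted p = 3.9e-04).

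Sox7, a SOX F factor found in parietal endoderm, stood at 6.40, 7.42 and 9.24 FPKM in WT with ATRA, against 2.53, 2.54 and 1.88 in WT in vehicle. The groups did not overlap, and the 3 letters gave ratios of 2.53, 2.92 and 4.93. The log2 difference was 1.38 ± 0.17 (SE; limma adjusted p = 3.0e-04), and 1.49 without the D library (limma adjusted p = 9.0e-04). Sox7 already had more transcript than Gata6 in WT in vehicle, with means of 2.31 and 1.08 FPKM that come from non-overlapping libraries. After ATRA the order was turned, although the libraries of the 2 genes then overlapped.

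Gata4, the partner of Gata6, and Pdgfra moved less and rested on the pairing. Gata4 stood at 5.74, 4.80 and 4.04 FPKM in WT with ATRA, against 3.40, 3.25 and 1.46 in WT in vehicle. Pdgfra stood at 2.23, 1.70 and 1.12 FPKM in WT with ATRA, against 1.03, 0.954 and 0.49 in WT in vehicle. In both genes all treated libraries lay above all vehicle libraries, which holds for 22.9% of tested genes, and libraries with the same letter kept the same order in both treatments. The log2 differences of 0.70 for Gata4 and 0.55 for Pdgfra did not pass without a block (limma adjusted p = 0.0632 and 0.109) and passed once the letter entered as a block in each genotype (limma adjusted p = 4.5e-04 and 2.0e-04). Without the D library of WT with ATRA and without a block the differences were 0.59 for Gata4 and 0.40 for Pdgfra (limma adjusted p = 0.205 and 0.333); the block was not fitted without that library.

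With that block 5 of the 8 genes passed, namely Gata4, Gata6, Sox7, Sox17 and Pdgfra, and all rose, while 55.7% of all tested genes passed and 33.7% rose. Sox17, a SOX F factor needed for endoderm, stood at 0.905, 0.920 and 0.685 FPKM in WT with ATRA, against 0.383, 0.733 and 0.367 in WT in vehicle. Its groups overlapped, but each letter was higher with ATRA, by ratios of 2.37, 1.25 and 1.87 (limma adjusted p = 0.130 without the block and 0.0244 with it). All 6 WT values of Sox17 lie under 1 FPKM. Dab2, Cubn and Amn passed neither fit, with ratios between 0.796 and 1.72 over the 9 pairs.

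Gata4 and Sox7 are neighbours on mouse chromosome 14 (GRCm38, 63198922 to 63271692 and 63943673 to 63950732). They lie 671981 bp apart with 6 protein-coding genes starting between them. Their ATRA ratios in WT were 1.8 for Gata4 and 3.32 for Sox7, taken from group means.

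**Figure D1:**
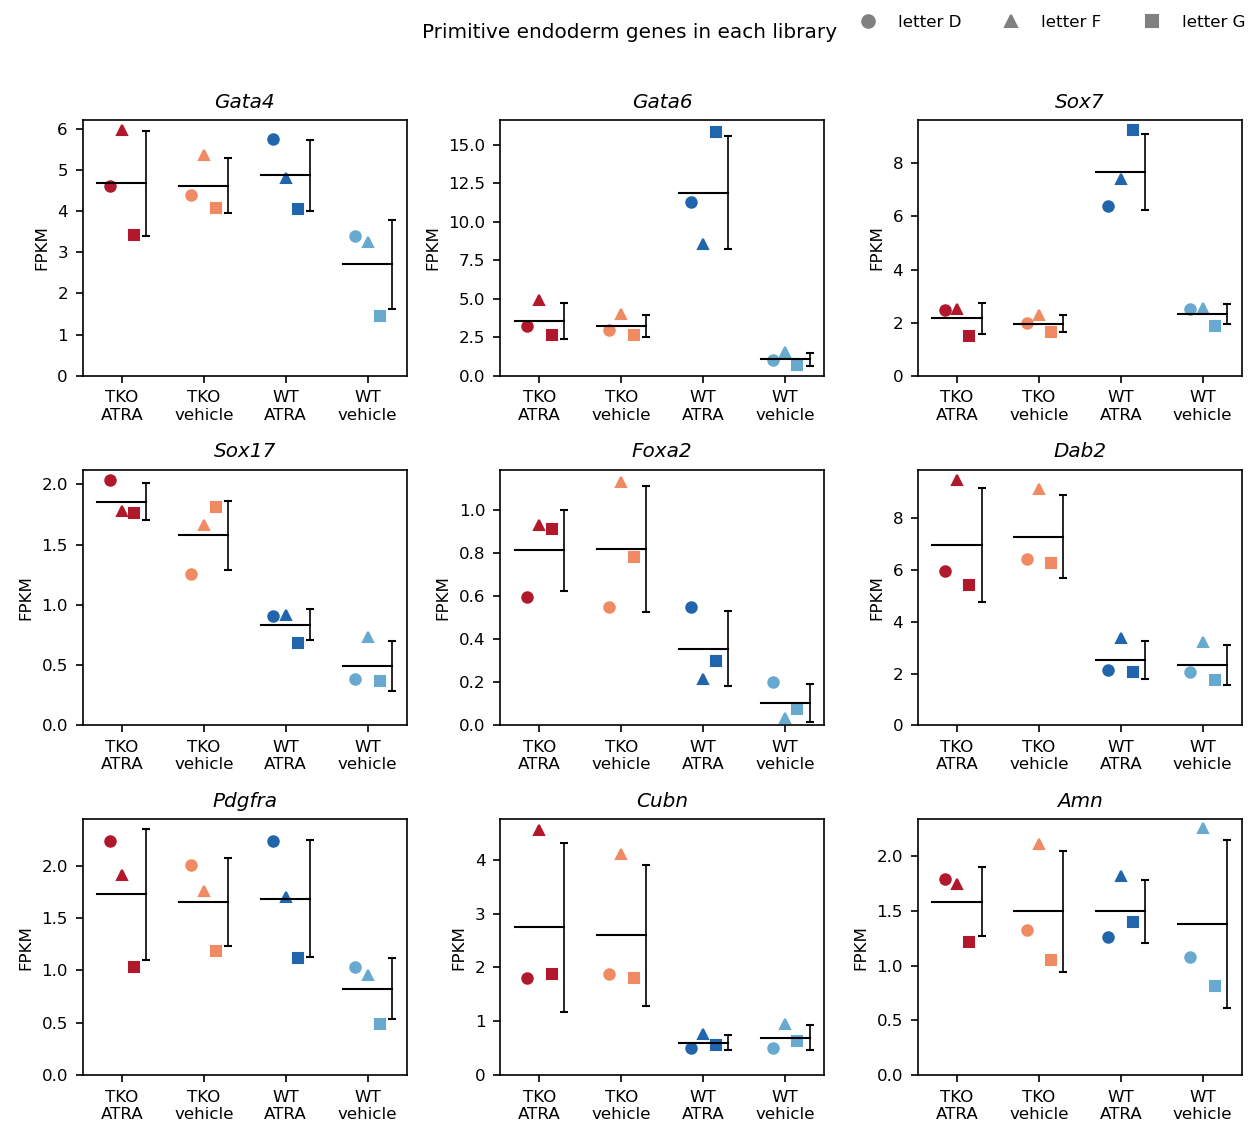
FPKM of the 9 genes in each library, with panels from 0 and the groups from left to right TKO with ATRA, TKO in vehicle, WT with ATRA and WT in vehicle. Points are libraries with symbols for the letter, lines are means and bars 1 SD (n = 3). Gata6 and Sox7 stand out in WT with ATRA, Dab2 and Cubn are higher in all TKO libraries than in any WT library, and Amn overlaps in all groups.

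Without added ATRA, TKO cells held more transcript of the adaptor gene Dab2, the cubilin gene Cubn and the transcription factor genes Gata6 and Sox17 than WT cells. These were 4 of the 8 tested genes, where 24.6% of all tested genes passed in either direction and 11.8% were higher. None of the 8 passed as lower, and Gata4, Sox7, Pdgfra and Amn did not pass. Sox17 and Cubn were tested only because their TKO libraries exceed 1 FPKM, as every WT library lies under it, so this count holds 2 genes that had to be higher in TKO to enter.

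Dab2 encodes an adaptor that links receptors to clathrin-coated pits and is needed for ordered visceral endoderm. It stood at 6.44, 9.13 and 6.27 FPKM in TKO in vehicle, against 2.05, 3.21 and 1.74 in WT in vehicle. Each TKO library lay above each WT library. The ratio of means was 3.11 and the log2 difference 1.32 ± 0.23 (SE; limma adjusted p = 0.00245).

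Cubn encodes cubilin, which binds protein ligands and reaches the cell surface with amnionless. It stood at 1.87, 4.11 and 1.81 FPKM in TKO in vehicle, against 0.4995, 0.947 and 0.637 in WT in vehicle. No libraries overlapped, and F was the highest library in each genotype. The ratio of means was 3.74 and the log2 difference 1.04 ± 0.28 (SE; limma adjusted p = 0.0203), but the call was lost without the D library of WT in vehicle (0.95, limma adjusted p = 0.0739) or without the F library of TKO in vehicle (0.75, limma adjusted p = 0.0665).

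Amn, whose product anchors cubilin in the membrane, stood at 1.32, 2.11 and 1.05 FPKM in TKO in vehicle, against 1.07, 2.25 and 0.817 in WT in vehicle. The groups overlapped almost fully, and the 95% interval of the log2 difference ran from −0.39 to 0.57. Amn had means of 1.38 to 1.58 FPKM in the 4 groups, whereas those of Cubn ran from 0.603 to 2.74.

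Gata6 stood at 2.99, 4.04 and 2.65 FPKM in TKO in vehicle, against 1.02, 1.52 and 0.701 in WT in vehicle. All TKO libraries lay above all WT libraries, by a ratio of means of 2.98 and a log2 difference of 1.03 ± 0.24 (SE; limma adjusted p = 0.0104). Sox17 stood at 1.26, 1.66 and 1.81 FPKM in TKO in vehicle, against 0.383, 0.733 and 0.367 in WT in vehicle, with a log2 difference of 0.79 ± 0.13 (SE; limma adjusted p = 0.0014).

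Gata4 (4.40, 5.36 and 4.08 FPKM in TKO in vehicle) and Pdgfra (2.003, 1.76 and 1.18 FPKM) also had no library that overlapped WT in vehicle. Their log2 differences of 0.64 and 0.54 did not pass (limma adjusted p = 0.0670 and 0.0910). Libraries did not overlap with TKO higher for 19.1% of all tested genes. Sox7 alone among the transcription factors gave no separation, at 1.98, 2.29 and 1.64 FPKM in TKO in vehicle, against 2.53, 2.54 and 1.88 in WT in vehicle.

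Foxa2, a forkhead factor of visceral and definitive endoderm, was the weakest of the 9 genes in every group and was not tested, since only 1 library reached 1 FPKM. It stood at 0.549, 1.13 and 0.783 FPKM in TKO in vehicle, against 0.204, 0.0334 and 0.0765 in WT in vehicle. The groups did not overlap, and the ratio of means was 7.85 (exact permutation p = 0.1, two-sided, the smallest that 3 against 3 allows). With ATRA it stood at 0.599, 0.931 and 0.912 FPKM in TKO, against 0.551, 0.217 and 0.301 in WT. These groups did not overlap either, and each WT letter was higher with ATRA than in vehicle, by ratios of 2.7, 6.49 and 3.94. When genes were tested without a filter on low values, Foxa2 was higher in TKO in vehicle (log2 difference 0.71, limma adjusted p = 0.00565) and with ATRA (0.42, limma adjusted p = 0.0337).

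**Figure D2:**
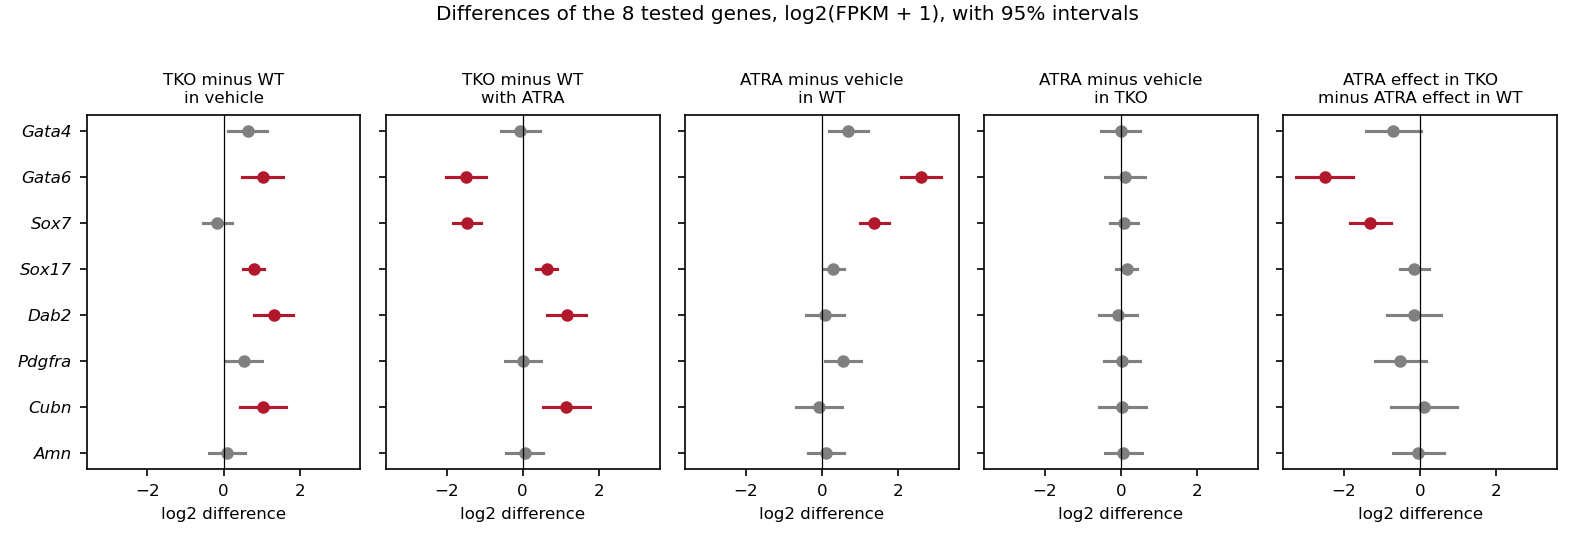
Differences on the log2(FPKM + 1) scale for the 8 tested genes in 5 comparisons, with points for the estimate and lines for its 95% interval; red marks an adjusted p under 0.05. Gata6 is higher in TKO in vehicle and lower in TKO with ATRA, Sox17, Dab2 and Cubn are higher in TKO in both treatments, and no gene is red for ATRA in TKO.

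The sequences before the starts of Dab2, Cubn and Foxa2 are shown because, among the genes with a RefSeq window, they had the largest ratios of TKO to WT in vehicle. Each is 240 bases on the gene's strand, from 250 to 11 bases before a RefSeq start (GRCm38.p6), and capitals mark GATA motifs (the letters GATA preceded by A or T and followed by A or G, on either strand). Of the windows of these 3 genes the most upstream of each is shown, with the further Foxa2 window that holds a GATA motif; the remaining Foxa2 and Dab2 windows hold none of the motifs searched. The second Foxa2 window precedes a downstream start inside the gene, and none of the 4 windows overlaps an annotated exon.
Dab2, chr15:6299539-6299778, plus strand: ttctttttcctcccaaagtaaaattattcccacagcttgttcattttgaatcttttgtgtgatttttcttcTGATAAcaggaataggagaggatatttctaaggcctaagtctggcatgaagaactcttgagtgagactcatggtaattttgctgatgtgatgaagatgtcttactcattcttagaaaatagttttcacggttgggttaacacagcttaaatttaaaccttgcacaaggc
Cubn, chr2:13491887-13492126, minus strand: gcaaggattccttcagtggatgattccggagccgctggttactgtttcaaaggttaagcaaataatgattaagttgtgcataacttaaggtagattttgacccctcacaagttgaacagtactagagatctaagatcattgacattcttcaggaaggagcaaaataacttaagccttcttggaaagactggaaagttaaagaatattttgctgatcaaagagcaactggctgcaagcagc
Foxa2, chr2:148046980-148047219, minus strand: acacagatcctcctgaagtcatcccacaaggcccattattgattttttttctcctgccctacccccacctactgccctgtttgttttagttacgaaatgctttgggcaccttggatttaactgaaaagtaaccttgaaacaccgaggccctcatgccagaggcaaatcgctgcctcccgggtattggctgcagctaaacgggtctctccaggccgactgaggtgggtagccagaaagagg
Foxa2, chr2:148045475-148045714, minus strand: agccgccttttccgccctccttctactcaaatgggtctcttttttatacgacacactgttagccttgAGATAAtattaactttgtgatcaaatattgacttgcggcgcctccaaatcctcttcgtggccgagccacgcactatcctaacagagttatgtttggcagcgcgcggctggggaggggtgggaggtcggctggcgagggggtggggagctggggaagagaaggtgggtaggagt

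RefSeq windows were at hand for 5 of the 9 genes, with 8 windows in all. A GATA motif occurred in 2 of them, 179 bases before the Dab2 start and 183 bases before the downstream Foxa2 start, and 25.9% of 32851 windows of this length hold at least 1. Searched on both strands, the FOXA motif (TGTTTAC, or the same with G as its sixth letter; 7.06% of all windows), the SOX motif (AACAAT; 9.23%) and the nuclear receptor hexamer (AGGTCA; 13.5%) had no match in the 8 windows. A match is a description of letters and not a bound site.

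With ATRA in both genotypes the 8 genes divided. Sox17, Dab2 and Cubn were higher in TKO and Gata6 and Sox7 were lower, where 42.1% of all tested genes passed, 16.4% higher and 25.7% lower. Sox17 and Cubn again entered the test only through their TKO libraries, so nothing is read from their part of this count. Without the D library of WT with ATRA the same 5 genes passed in the same directions, with limma adjusted p between 1.9e-04 for Sox7 and 0.0271 for Cubn. Of those all-gene calls, 38.9% were higher in TKO, compared with 51.8% and 49.4% under the scalings named above. Median-of-ratios scaling moved the median of all genes in this comparison by 0.101 on the log2 scale, and the 5 calls of the 8 genes had the same direction under it.

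Gata6 stood at 3.20, 4.90 and 2.65 FPKM in TKO with ATRA, against 11.3, 8.56 and 15.8 in WT with ATRA, a log2 difference of −1.48 ± 0.24 (SE; limma adjusted p = 5.8e-04). Sox7 stood at 2.47, 2.53 and 1.48 FPKM in TKO with ATRA, against 6.40, 7.42 and 9.24 in WT with ATRA, a log2 difference of −1.46 ± 0.17 (SE; limma adjusted p = 6.2e-05). Neither gene had overlapping libraries, with TKO lower, as for 31.7% of tested genes. All 6 TKO libraries of Gata6 lay above WT in vehicle and below WT with ATRA, while those of Sox7 overlapped WT in vehicle.

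Dab2 stood at 5.97, 9.47 and 5.42 FPKM in TKO with ATRA, against 2.15, 3.37 and 2.08 in WT with ATRA, and Cubn at 1.79, 4.54 and 1.89 FPKM in TKO with ATRA, against 0.496, 0.754 and 0.559 in WT with ATRA. The log2 differences were 1.16 ± 0.23 for Dab2 and 1.15 ± 0.28 for Cubn (SE; limma adjusted p = 0.00218 and 0.00677). Sox17 stood at 2.03, 1.78 and 1.76 FPKM in TKO with ATRA, against 0.905, 0.920 and 0.685 in WT with ATRA, without overlap and with TKO higher, as for 20.1% of tested genes, and differed by 0.64 ± 0.13 (SE; limma adjusted p = 0.00197). Gata4 averaged 4.67 ± 1.28 FPKM in TKO with ATRA and 4.86 ± 0.851 in WT with ATRA, and Pdgfra 1.73 ± 0.625 in TKO with ATRA and 1.69 ± 0.557 in WT with ATRA (SD, n = 3 each). Both genes overlapped there.

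The order of levels differed between the groups. Dab2 was the most abundant of the 9 genes in both TKO groups, at 6.96 FPKM with ATRA and 7.28 in vehicle, and in vehicle its libraries did not overlap those of Gata4, the next gene. Gata6 led in WT with ATRA, where it overlapped Sox7, and Sox7 did not overlap Gata4 below it. In WT in vehicle Gata4, Dab2 and Sox7 led with means of 2.7, 2.34 and 2.31 FPKM, and each overlapped its neighbour. The sum over all 9 genes ran from 19.8 to 33.8 FPKM in TKO with ATRA, from 21.3 to 31.6 in TKO in vehicle, from 29.5 to 35.3 in WT with ATRA and from 8.16 to 15.4 in WT in vehicle.

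In TKO cells ATRA moved none of the genes past the test. Limma called 0 of the 8 genes and 0% of all tested genes, and at an unadjusted p under 0.05 it gave 0 of the 8 and 12 of all 12362. A fit to the 6 TKO libraries alone called 1 gene, which is none of the 9. Over the 9 genes and 3 letters, the ratio of ATRA to vehicle in TKO ran from 0.821 to 1.62. For Gata6 the 95% interval of the log2 difference was −0.43 to 0.63, and for Sox7 −0.30 to 0.46, both short of the differences in WT.

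The difference between these ATRA effects was itself tested. Gata6 and Sox7 passed, 2 of the 8 genes, where 5.43% of all tested genes passed and 3.96% were lower. The ATRA effect of TKO less that of WT came to −2.51 ± 0.34 for Gata6 (SE; limma adjusted p = 0.0015) and −1.31 ± 0.24 for Sox7 (SE; limma adjusted p = 0.0102). Without the D library of WT with ATRA they were −2.53 and −1.41 (limma adjusted p = 0.0063 and 0.0146). With the letter block Gata4 and Pdgfra passed too, which makes 4 of 8, where 39% of all tested genes passed and 24.8% were lower (−0.70 and −0.52, limma adjusted p = 0.0057 and 0.0040). Of the all-gene calls without a block 27.1% were higher, and 40.8% and 40.0% under the 2 other scalings. For Sox17, Dab2, Cubn and Amn the difference did not pass in either fit.

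**Figure D3:**
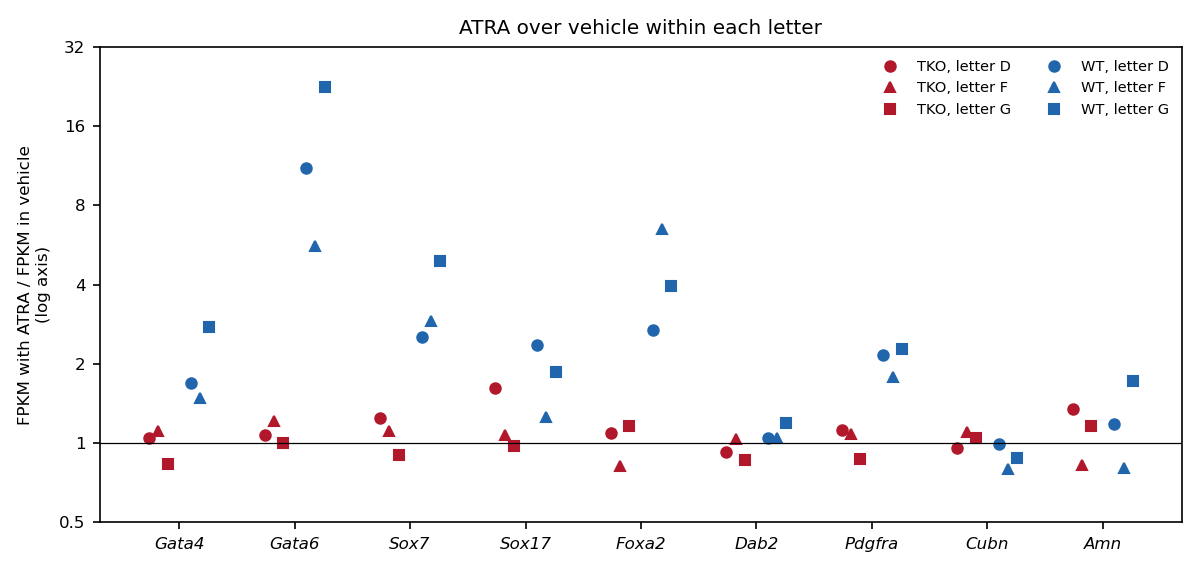
FPKM with ATRA divided by FPKM in vehicle for each letter (log axis), for TKO in red at the left of each gene and WT in blue at the right. The 9 genes stay between 0.821 and 1.62 in TKO, while in WT every letter lies above 1 for Gata4, Gata6, Sox7, Sox17, Foxa2, Dab2 and Pdgfra and reaches 22.6 for Gata6.

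For 4 of the 9 genes a letter was the highest or the lowest library in all 4 groups. Middle places were not counted. Letters were taken as pairs only inside a genotype, so the same letter in TKO and WT is not treated as a shared replicate. F was the highest library in all 4 groups for Dab2 and Cubn, which holds for 2.79% of all tested genes, and G was the lowest in all 4 for Gata4, Dab2 and Pdgfra, which holds for 2.04%. D was the highest in all 4 for Pdgfra, which holds for 4.29%. For Gata6 and Sox7, G was the lowest library in WT in vehicle and the highest in WT with ATRA. Dab2 and Cubn had the closest profiles among pairs of the 9 genes, with Pearson r = 0.96 over 12 libraries on the log2(FPKM + 1) scale and 0.86 after the group means were removed. Over libraries Gata4 with Pdgfra (0.89), Sox17 with Dab2 (0.89), Sox17 with Foxa2 (0.86) and Gata6 with Sox7 (0.84) came next. After removal of the group means the next were Dab2 with Amn (0.82), Gata4 with Pdgfra (0.78) and Gata6 with Sox7 (0.75). These r values describe libraries that share groups and letters.

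Genes with the most similar profiles over the 12 libraries were taken by Pearson r among tested genes. Repeated symbols, predicted genes, small RNA genes and genes with clone-type names were left out. Tinagl1 was the closest to Gata6 (r = 0.98), followed by Ugcg and Ndn. Pofut2, Ywhaq and Parp10 were closest to Sox7 (0.98 each). Kdr, which encodes a receptor of vascular endothelial growth factor, was closest to Cubn (r = 0.98), followed by the imprinted RNA gene H19 and Atg16l1. Ddx3x was closest to Dab2 (0.99), Ireb2 to Sox17 (0.96), Ptgr1 to Pdgfra (0.95), Ifngr2 to Gata4 (0.93) and Slc25a20 to Amn (0.92).

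The lists that follow are read against the shares of all tested genes, which were 11.8% higher and 12.8% lower for TKO against WT in vehicle, 16.4% and 25.7% for TKO against WT with ATRA, and 11.6% and 5.14% for ATRA in WT. Of 19 genes of the FGF and ERK route 2 rose and 2 fell with ATRA in WT, a share near that of all tested genes. The ligand gene Fgf4 fell to 24.0 ± 5.32 FPKM with ATRA, against 70.0 ± 12.4 in vehicle (log2 difference −1.51, limma adjusted p = 7.2e-05), and the ERK target Etv5 fell by 0.51. The receptors Fgfr1 and Fgfr2 rose, Fgfr2 to 3.16 ± 0.943 FPKM with ATRA, against 0.904 ± 0.0715 in vehicle. In TKO in vehicle, relative to WT, 3 of the 19 were higher (Fgfr2, Grb2 and Ptpn11) and 2 lower (Fgfr3 and Mapk3), again near the share of all genes. Fgfr3 was tested only through its WT libraries. With ATRA 4 were higher in TKO and 5 lower.

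Of 12 epiblast factors that oppose primitive endoderm, 10 fell with ATRA in WT and none rose, with a median log2 difference of −0.81. They included Nanog, at 289 ± 123 FPKM with ATRA and 502 ± 159 in vehicle (limma adjusted p = 0.0477), and Zfp42, which fell by 1.85 (limma adjusted p = 4.0e-05). Klf5 and Tbx3 did not pass. In TKO in vehicle, relative to WT, Sall4 was higher and Klf5 lower, and Nanog averaged 405 ± 24 FPKM in TKO and 502 ± 159 in WT. ATRA in TKO moved none of these 12 genes, nor any gene of the other lists, past the test.

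Among relatives of the transcription factors, Foxa1 rose with ATRA in WT to 2.50 ± 0.610 FPKM, against 0.304 ± 0.111 in vehicle (log2 difference 1.41, limma adjusted p = 2.9e-05). Gata1 and Gata2 fell, and Zfpm1, the GATA cofactor FOG1, rose. Gata2 was also lower in TKO in vehicle, at 2.22 ± 1.19 FPKM in TKO and 6.98 ± 2.01 in WT, Zfpm1 was lower too and Gata1 was higher, which makes 1 higher and 2 lower of 5 tested genes. With ATRA in both genotypes Gata1 was higher in TKO, and Foxa1 and Zfpm1 were lower. Foxa1 was at most 0.405 FPKM outside WT with ATRA, so it was tested only through that group. Gata1 could not have been tested without its TKO libraries. Nothing is read from the rise of Foxa1 or from the TKO calls of Foxa1 and Gata1. Gata3, Gata5, Sox18 and Zfpm2 stayed too low to be tested, and Foxa3 passed in none of the comparisons.

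Of 16 tested genes listed for parietal endoderm and its basement membrane, 9 were higher in TKO in vehicle, 1 was lower and 6 did not pass, with a median log2 difference of 0.70, against −0.02 over all tested genes. With ATRA in both genotypes 7 were higher in TKO and 3 lower (Serpinh1, Plat and Stra6), with a median of 0.34, against −0.07 over all tested genes. The laminin gene Lamb1 averaged 29.8 ± 5.68 FPKM in TKO and 12.4 ± 0.677 in WT, the collagen gene Col4a1 47.6 ± 14.7 in TKO and 20.8 ± 1.45 in WT, and Nid2, Hspg2 and Fst were higher too. Serpinh1, the collagen chaperone, was lower in TKO (32.6 ± 4.86 FPKM in TKO and 58.5 ± 11.5 in WT). With ATRA in WT 6 of the 16 rose and Nid1 fell. Those that rose were Col4a1, Col4a2, Serpinh1, Plat, Snai1 and Stra6, the last a retinol transporter and itself a target of retinoic acid. Plat and Stra6 could not have been tested without WT with ATRA. Nothing is read from their rise or from their lower calls in TKO with ATRA. Fst could not have been tested without its TKO libraries, so nothing is read from its part of the TKO counts.

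Visceral endoderm genes were mostly too low to be tested. Afp, Ttr, Apoa4, Cer1 and Lhx1 lay under 0.1 FPKM on average in every group, and 9 of 22 genes could be tested. In TKO in vehicle 5 of the 9 were higher than in WT, among them Trf, Cited1, Otx2 and Nodal, and 2 were lower, Lefty1 and Hhex. With ATRA in both genotypes 2 were higher in TKO (Cited1 and Otx2) and 3 lower (Rbp4, Lefty1 and Hhex). Cited1 reached at most 0.95 FPKM in WT, so it was tested only through its TKO libraries. Nothing is read from its part of these counts. Otx2 averaged 20.1 ± 1.45 FPKM in TKO and 2.32 ± 0.890 in WT, and Otx2 and Nodal are also genes of the epiblast. With ATRA in WT 5 rose, among them Rbp4, Trf, Lefty1 and Nodal, and Otx2 fell.

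Of 13 endocytic partners 4 were higher in vehicle, namely the megalin gene Lrp2, its chaperone Lrpap1, the clathrin heavy chain gene Cltc and the adaptor gene Ap2b1, and Lrp1 was lower. With ATRA in both genotypes 5 were higher in TKO and 3 lower. Lrp2 averaged 8.99 ± 1.63 FPKM in TKO and 4.88 ± 0.820 in WT (log2 difference 0.76, limma adjusted p = 0.0068). With ATRA in WT 1 of the 13 rose, Lrp1.

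Of the tested ligand and receptor genes of the PDGF family and its close kinases, 3 of 6 were higher in TKO in vehicle, namely Pdgfb, Pdgfc and Kdr. With ATRA 4 were higher in TKO and 2 lower (Pdgfrb and Kit). Kdr reached at most 0.123 FPKM in WT. Neither Kdr nor Pdgfb could have been tested without its TKO libraries, so nothing is read from their part of these counts. Pdgfc averaged 12.5 ± 1.67 FPKM in TKO and 3.63 ± 0.372 in WT. Pdgfa, the main ligand of PDGFRA in the blastocyst, averaged 35.7 ± 11.5 FPKM in TKO and 21.8 ± 3.08 in WT and did not pass (limma adjusted p = 0.0716). With ATRA in WT Pdgfa and Pdgfc fell and Pdgfrb rose, the last to 7.39 ± 1.76 FPKM with ATRA, against 1.84 ± 0.445 in vehicle.

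**Figure D4:**
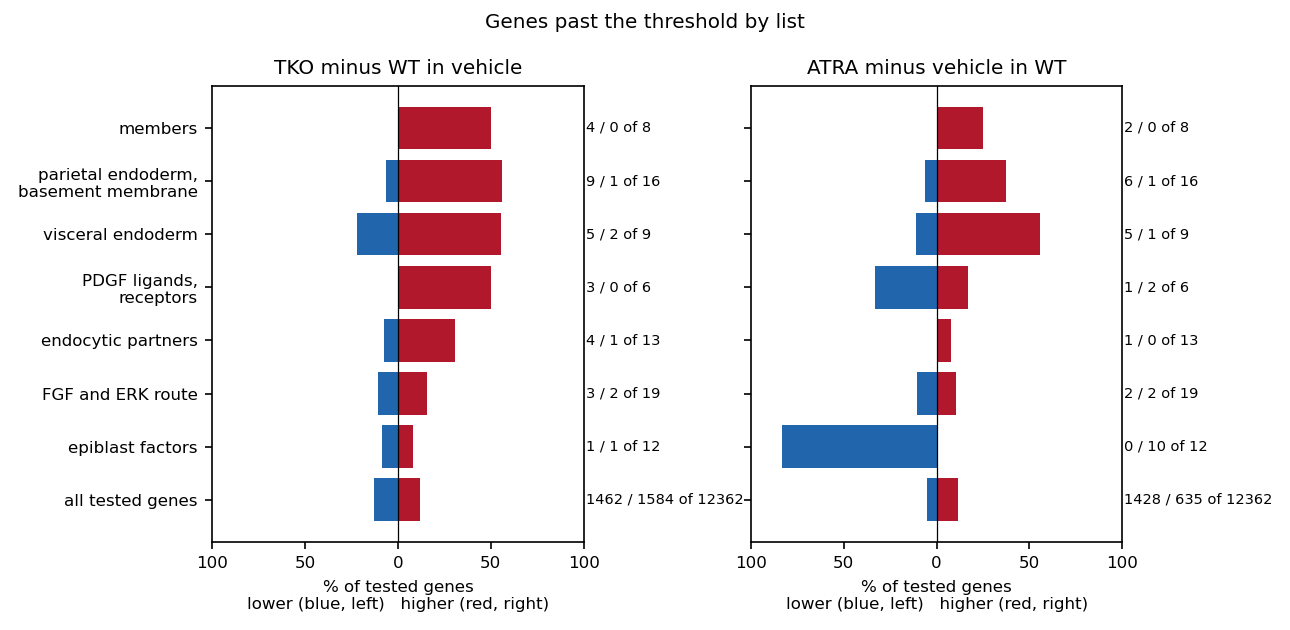
Share of the tested genes of each list that passed in TKO against WT in vehicle (left) and in ATRA against vehicle in WT (right), with higher genes to the right in red and lower genes to the left in blue; the counts read higher / lower of tested. In the left panel 4 of the 8 primitive endoderm genes and 9 of 16 parietal endoderm genes are higher in TKO. Of all tested genes 11.8% are higher. Sox17 and Cubn, 2 of the 4, and Fst, among the 9, could be tested only through their TKO libraries. In the right panel 10 of 12 epiblast factors are lower with ATRA.

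Markers of other cells that share these genes were read beside the results. In TKO in vehicle, relative to WT, 2 of 5 tested trophoblast genes were higher (Hand1 and Krt18) and Tfap2c was lower, with summed levels of 34.2 to 78.9 FPKM in TKO and 23.3 to 38.5 in WT, and Tpbpa and Prl3d1 under 0.1 in all groups. For fibroblasts 1 of 4 tested genes was higher (Tagln), with sums of 17.6 to 18.95 FPKM in TKO and 12.02 to 16.3 in WT, and Col3a1, Postn, Prrx1, Lum and Dcn were under 0.1 in all groups. With ATRA in WT 2 of these 4 rose (Twist1 and Fbln2) and Thy1 fell, with sums of 9.85 to 11.8 FPKM with ATRA and 12.02 to 16.3 in vehicle. Fbln2 could not have been tested without its libraries of WT with ATRA. Of the other untested fibroblast genes, Acta2 lay at 0.552 to 1.47 FPKM in TKO in vehicle and 0 to 0.0301 in WT in vehicle. Col1a1 overlapped between these groups, and Col1a2 was at most 0.106 FPKM in any group. With ATRA in WT all 3 tested heart genes rose (Nkx2-5, Myh6 and Myl7), with sums of 9.37 to 13.5 FPKM with ATRA and 3.39 to 3.69 in vehicle. Nkx2-5 and Myh6 reached 1 FPKM only in WT with ATRA, with highest values of 0.654 and 0.595 elsewhere. They had to be higher there to be tested, so nothing is read from their part of this count. Tbx5, Hand2 and Mef2c lay under 0.1 in all groups. Of 2 tested mesendoderm genes none rose with ATRA in WT, and Cxcr4 was higher in TKO in vehicle. Neural genes gave 2 that rose (Pax6 and Sox1) and 1 that fell (Tubb3) of 5 with ATRA in WT, and Pax6 was lower in TKO in vehicle. The part of such cells in the results on the 9 genes was not tested. Hand1, Tagln and Cxcr4 could not have been tested without their TKO libraries, nor Pax6 without its WT libraries. Nothing is read from the calls of these genes in TKO against WT. Among 10 known retinoic acid targets 9 rose with ATRA in WT, the exception being Tgm2. Rarb, Stra6, Dhrs3 and Hoxb1 reached 1 FPKM only in WT with ATRA, so they were tested only through that group.

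Strand was not used in a way the sources describe, and annotated genes overlap Gata6, Sox17, Dab2, Pdgfra and Cubn, in each case at least 1 of them on the other strand. Reads from those partners cannot be told apart from the named genes. Gata4, Sox7, Foxa2 and Amn have no overlapping annotated gene.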

How the data were processed

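RNA-seq of 12 libraries in 4 groups of 3 was used. The authors deposited 1 table of FPKM per gene; the submitters' processing notes name STAR, Cufflinks and GRCm38, without versions. The unit was taken from the values and these notes, and total depth is unknown. The table's positions are not those of GRCm38, so coordinates come from GENCODE vM21 and RefSeq by symbol. After 18 exact repeat rows were removed, 23668 remained, and the 12362 that reached 1 FPKM in 3 or more libraries were tested. Limma 3.58.1 in R 4.3.3 was fitted to log2(FPKM + 1) over all 12 libraries with 1 mean per group (8 residual degrees of freedom), with trended and robust moderation and Benjamini-Hochberg adjustment over all tested genes in each of 5 comparisons. Differences on this scale understate changes of low genes.

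The column names carry letters and the sample titles numbers, so columns were assigned to groups. Deviations from group means correlated at 0.376 to 0.864 between libraries of the same genotype and letter, and at −0.515 to 0.287 between libraries of the same letter in different genotypes, where pairs of different letters reached 0.600 (G of WT with F of TKO, both in vehicle). Letters were therefore taken as pairs inside each genotype only; no label states this.

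The 9 genes and all lists were chosen with earlier results of these data known. From each list, the genes with the smallest adjusted p and the direct relatives or partners of the 9 were named; others named to complete a count were chosen after their values were seen. Not every gene of the visceral endoderm list is reported here by name. Alternatives were another pseudocount (0.1), no filter, median-of-ratios scaling, quantile normalization, only the compared groups, letter blocks and each library left out. Leaving out all F libraries was added after seeing the data.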

Additional observations from a re-analysis of the deposited data

Results flagged for a closer look

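The effect of ATRA on Gata6 and Sox7 differed between the genotypes by a test of the difference itself. For Gata6 the effect of TKO less that of WT came to −2.51 on the log2(FPKM + 1) scale (limma adjusted p = 0.0015), and ATRA was higher than vehicle in 2 of 3 letters in TKO and 3 of 3 in WT. For Sox7 it was −1.31 (limma adjusted p = 0.0102), with ATRA higher in 2 of 3 letters in TKO and 3 of 3 in WT. The causes were not tested.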

How the results depend on the processing

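The 40 differences of the 8 tested genes gave 13 calls. None of the 13 changed sign under an alternative, and 1 lost its call, Cubn in TKO against WT in vehicle. Of the 27 differences without a call, 18 changed sign under at least 1 alternative, none with a call there, and 7 gained a call under an alternative. Without a filter on low values, 5 and 6 of the 9 genes were called in TKO against WT in vehicle and with ATRA, since Foxa2 entered.

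With the letter as a replicate block within genotype, calls for ATRA in WT numbered 5 of the 8 genes (6887 of all genes, against 2063 without it), and those for the difference of the effects 4 (4820, against 671); it changed no call for ATRA in TKO. This block could not be fitted for TKO against WT, where letter and genotype cannot be told apart. A replicate block of letters shared by the genotypes, which the correlations above do not bear out, gave 4 calls for ATRA in WT and 6 in TKO against WT in vehicle. A fit to the compared groups only called 1 of all genes for ATRA in TKO, against 0.

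With single libraries left out, calls over all genes ranged from 406 to 710 for the difference of the effects, from 1189 to 2179 for ATRA in WT and from 1934 to 3172 for TKO against WT in vehicle. They moved by over 1.5 times without the D library of WT in vehicle, WT with ATRA or TKO in vehicle, and without G of TKO with ATRA. The uncalled ATRA differences in TKO ranged from −0.0957 to 0.251 for Gata6 and from −0.0112 to 0.244 for Sox7. The cause of these shifts was not tested. Depth per library is unknown, so genes near 0 FPKM such as Foxa2 have no counting error.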
